A study of Mus musculus with 2 samples.

Results

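The minor (U12) spliceosome was examined through 9 genes in RNA-seq libraries of mouse testes collected 9 days after birth (P9). They were taken by gene symbol, whatever their values, from 39695 gene entries. All 9 had a row, and in each the RPKM averaged over both libraries was at least 1. RPKM is the number of reads on a gene scaled to the length of the gene and the size of the library. The 2 libraries came from a control testis sample and a Bcas2F/-;Vasa-Cre testis sample. Males of both groups had 1 deleted and 1 floxed allele of Bcas2 (Bcas2F/-), and those of the control group had no Cre. The Vasa-Cre transgene of the other group is active specifically in germ cells, where it removes the floxed allele as well. The labels give C57BL/6 as the strain, and the methods of the study describe a mixed 129/C57BL/6 line. How many mice contributed to each library was not given in the sources used here. BCAS2 belongs to the Prp19 complex, which takes part in activating the spliceosome. The comparison asks whether the mRNAs of the minor spliceosome differed when Bcas2 was removed from germ cells. With 1 library per genotype, the differences described here could not be checked against replicates, and no p-values are given.

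Most introns are removed by the major spliceosome, built on the U1, U2, U4, U5 and U6 small nuclear RNAs (snRNAs). A small class, the U12-type introns, has its own conserved splice sites and is removed by the minor spliceosome, in which U11, U12, U4atac and U6atac take the places of U1, U2, U4 and U6. U11 and U12 act together as a di-snRNP, in which U11 pairs with the 5′ splice site and U12 with the branch site. The proteins encoded by Snrnp25, Snrnp35, Snrnp48, Pdcd7, Rnpc3, Zmat5 and Zcrb1 are particular to this di-snRNP. ZRSR2 recognises the 3′ splice site of U12-type introns, and SCNM1 joins the minor spliceosome at a later step.

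The RNAs that these proteins bind are shown for orientation, as annotated in GENCODE M21 on GRCm38. In Rnu11, the U11 gene (chr4:132270080-132270213, minus strand), the first capitals mark AAAGG, complementary to CCTTT of a U12-type 5′ splice site. In Rnu12, the U12 gene (chr15:83149644-83149794, plus strand), they mark AAGGAA, complementary to TTCCTT of a U12-type branch site. The second capitals mark AATTTTT, the core of the site where the Sm protein ring binds. The sequences are written as DNA, 5′ to 3′.
Rnu11: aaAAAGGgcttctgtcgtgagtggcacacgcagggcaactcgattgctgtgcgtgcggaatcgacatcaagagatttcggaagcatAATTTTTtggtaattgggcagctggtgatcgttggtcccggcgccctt
Rnu12: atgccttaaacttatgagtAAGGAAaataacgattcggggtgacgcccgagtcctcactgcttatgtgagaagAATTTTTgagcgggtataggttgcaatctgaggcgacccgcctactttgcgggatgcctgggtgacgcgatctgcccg
Searched on the transcript strand, with no overlap between the motifs in these transcripts, AAAGG occurred in the first 12 bases of 0.578% of 1383 annotated snRNA transcripts, AAGGAA in the first 40 bases of 1.16% and AATTTTT anywhere in 6% of them. The libraries hardly held these RNAs. Rnu11 had 1 read in the control and 3 reads in the Bcas2F/-;Vasa-Cre library, and Rnu12 had 2 reads and 0 reads. A count of 0 allows up to 3 reads, so no difference was detectable from so few reads. The paper isolated mRNA for sequencing, and how well such libraries capture these snRNAs was not tested. The other snRNAs of the minor spliceosome, U4atac and U6atac, were not analysed here.

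Bcas2, the targeted gene, had an RPKM of 39.5 in the control and 25.7 in the Bcas2F/-;Vasa-Cre library, from 1410 and 888 reads. Its log2 RPKM ratio had a 95% Clopper-Pearson interval of −0.75 to −0.50. The fall had the direction of the labels. Reads were recovered from the RPKM steps at library sizes of 19918750 and 19331687 reads. The paired-end data were counted with HTSeq, which counts pairs, so each read given here stands for a read pair. All intervals cover counting error only, since there is 1 library per genotype. Reads without molecular identifiers are not independent molecules, so the intervals could be too narrow even for counting error.

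None of the 9 minor spliceosome genes passed 1.5-fold in either direction. The RNA came from whole testes and Cre acts in germ cells, so a larger change within germ cells could stay inside 1.5-fold. Bcas2 itself had 0.649 of its control RPKM in the Bcas2F/-;Vasa-Cre library. Changes are given as the log2 ratio of RPKM + 1 in Bcas2F/-;Vasa-Cre over control testes, unless stated otherwise. Over all 14831 genes whose mean RPKM reached 1, 3.26% passed that threshold, 1.69% lower and 1.57% higher. The 9 genes all had a mean RPKM of 10 or more, where the shares were smaller. Between 10 and 50 they were 0.899% lower and 0.2% higher, and between 50 and 100 they were 0.461% and 0.197%. A count of 0 among 9 genes at these levels therefore says little. The median log2 ratio of the 9 genes was −0.11, and that of all genes tested was 0.015. The values ran from −0.49 for Snrnp25 to 0.43 for Snrnp48, both encoding proteins of the U11 particle. The other 7 lay within 0.25 of 0 on this scale. Of the 9 genes, 7 were below 0, as were 46.3% of all genes tested, and 2 were above 0, as were 53.7%. Summed over the 9 genes, RPKM was 417 in the control and 392 in the Bcas2F/-;Vasa-Cre library. The counting interval left out 0 for 3 of them, Snrnp25, Snrnp48 and Zrsr2, and for 36.1% of all tested genes that could be given reads (45.6% among those at a mean RPKM of 10 or more).

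**Figure D1:**
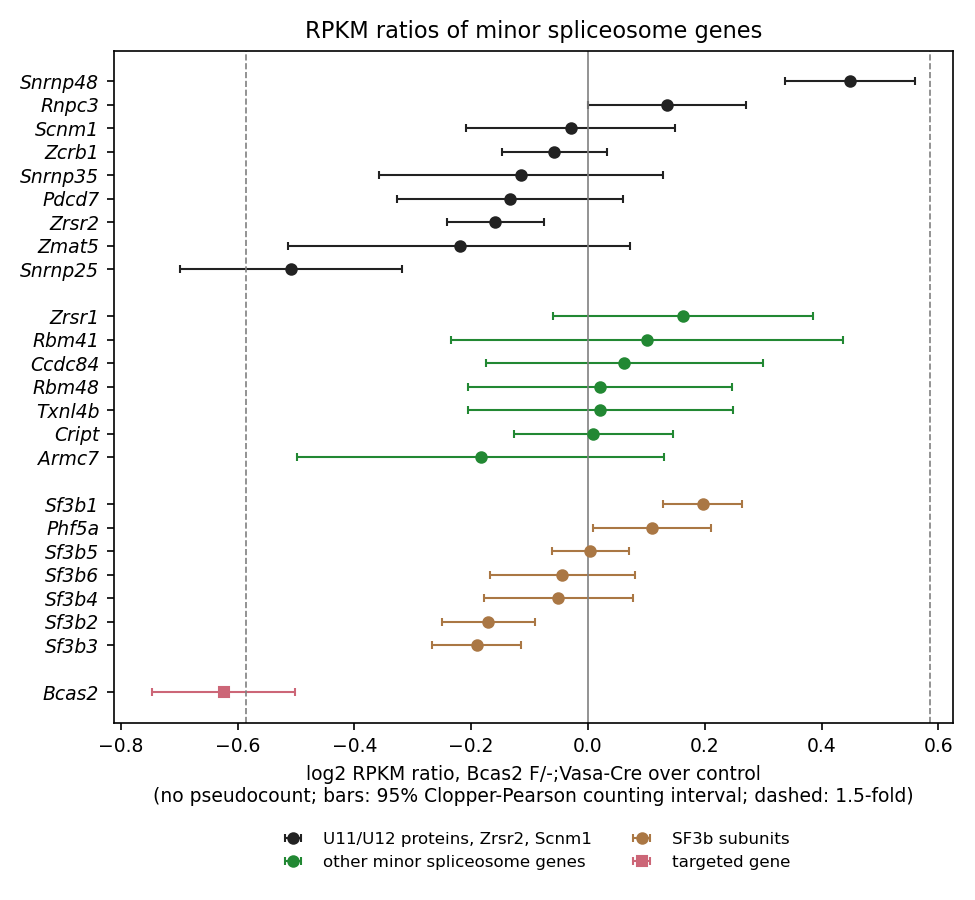
Log2 RPKM ratio of Bcas2F/-;Vasa-Cre over control testes without a pseudocount (horizontal axis) for the 9 minor spliceosome proteins, 7 other minor spliceosome genes, 7 SF3b subunits and Bcas2. Points are ratios of 1 library each, bars are 95% Clopper-Pearson counting intervals and dashed lines mark 1.5-fold. Snrnp48 and Snrnp25 stand at opposite ends of the 9 genes, and the interval of Snrnp25 reaches past 1.5-fold.

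Among the proteins of the U11 particle, Snrnp25 had the lowest ratio. The gene is on the plus strand of chromosome 11, from 32205415 to 32208984. Its RPKM was 45.8 in the control and 32.2 in the Bcas2F/-;Vasa-Cre library, from 564 and 385 reads. The Bcas2F/-;Vasa-Cre value was 0.703 of the control value, with a counting interval of 0.616 to 0.802. On the log2 scale of RPKM the interval was −0.70 to −0.32, so counting error alone leaves a 1.5-fold fall possible. In all, 6009 genes had a mean RPKM between 10 and 50, with an SD of 0.188 among their log2 ratios, and 92 of them (1.53%) were as low as Snrnp25.

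Snrnp48, whose product contacts the 5′ splice site, had the highest ratio. It is on the plus strand of chromosome 13, from 38204938 to 38227665. Its RPKM was 22.2 in the control and 30.3 in the Bcas2F/-;Vasa-Cre library, a 1.36-fold higher value with a counting interval of 1.26 to 1.47. Of the same 6009 genes, 43 (0.716%) were as high. The reads were 1166 and 1544 at a gene length of 2636 bases, which differs from the mean transcript length of 2130 bases in GENCODE M21. At the fewest whole reads that give the deposited ratio, 583 and 772, the interval on the log2 RPKM scale widened from 0.34 to 0.56 to 0.29 to 0.61. The upper end of this wider interval is past 1.5-fold (0.585), so at these reads counting error alone leaves a 1.5-fold rise possible.

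The 2 remaining U11 proteins showed small differences. Snrnp35, the counterpart of the major spliceosome's U1-70K, had an RPKM of 16.5 and 15.2 in the control and Bcas2F/-;Vasa-Cre libraries, from 300 and 269 reads. Its log2 ratio was −0.11, and its interval of −0.36 to 0.13 on the RPKM scale held 0. Pdcd7, which binds the Rnpc3 product and so links U11 to U12, had an RPKM of 19.2 and 17.5. Its log2 ratio was −0.13, with an interval of −0.33 to 0.06 from 469 and 415 reads. These are the fewest whole reads that give its ratio, at a gene length of 1227 bases against a mean of 1393 in GENCODE M21, so its true reads could be a whole multiple and the interval narrower. Snrnp35 lies on chromosome 5 from 124483134 to 124491124 and Pdcd7 on chromosome 9 from 65346104 to 65359643, both on the plus strand. Thus the genes for the U11 proteins spread from −0.49 to 0.43 between the same libraries.

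Rnpc3 encodes the protein that binds the U12 snRNA directly. Placed on the minus strand of chromosome 3, from 113605067 to 113630149, it had an RPKM of 21.8 in the control and 23.9 in the Bcas2F/-;Vasa-Cre library, from 870 and 927 reads. Besides Snrnp48 it was the only one of the 9 genes above 0, at a log2 ratio of 0.13, and its counting interval of −0.0003 to 0.27 just held 0. Its annotated 3′ end overlaps the amylase gene Amy1 on the same strand, and transcripts of both genes share 1128 identical bases. Amy1 had 61 and 33 reads, so reads of the shared stretch add uncertainty to Rnpc3.

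The other genes for proteins particular to the di-snRNP, Zmat5 and Zcrb1, differed most in level. Zcrb1, an RNA-binding zinc-knuckle protein gene on chromosome 15 from 93386097 to 93398334 (minus strand), had the highest RPKM of the 9 genes, 136 in the control and 131 in the Bcas2F/-;Vasa-Cre library. Its log2 ratio was −0.06, with an interval of −0.15 to 0.03. Among the 9 genes, only Zcrb1 had reads that could not be recovered as whole numbers. Its 2083 and 1943 reads were rounded from the GENCODE M21 mean transcript length of 769.25 bases, so its interval depends on that length. Zmat5, a zinc-finger protein gene on chromosome 11 from 4704678 to 4737669 (plus strand), had the lowest, 16.3 and 14.02. From 216 and 180 reads its log2 ratio was −0.21, and the interval was the widest of the 9, −0.51 to 0.07. No difference of Zmat5 was detectable at this depth. The 3′ end of Zmat5 overlaps Cabp7 on the opposite strand, where transcripts of both genes share 341 bases, and Cabp7 had 4 and 7 reads.

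The remaining genes were Zrsr2 and Scnm1. Zrsr2 lies on the X chromosome from 163935443 to 163958661 (minus strand) and had an RPKM of 101 in the control and 90.5 in the Bcas2F/-;Vasa-Cre library, from 2520 and 2191 reads. Its log2 ratio of −0.16 was small, yet the interval of −0.24 to −0.08 left out 0 because the gene was well covered. Among 1519 genes at a mean RPKM between 50 and 100, 14.7% were as low. Scnm1, on chromosome 3 from 95129536 to 95134011 (minus strand), had nearly equal values of 38.0 and 37.3, with a log2 ratio of −0.03 and an interval of −0.21 to 0.15. The interval rests on 529 and 503 reads, again the fewest possible, at a length of 698 bases against a mean of 661.5 in GENCODE M21.

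**Figure D2:**
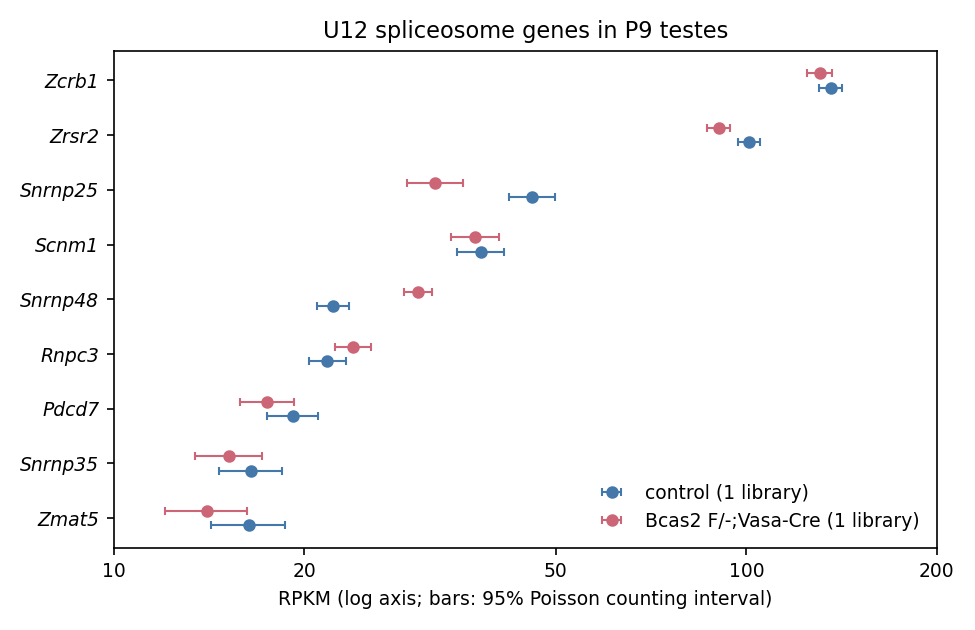
RPKM of the 9 minor spliceosome genes (horizontal log axis) in the control library (blue) and the Bcas2F/-;Vasa-Cre library (red), with 95% Poisson counting intervals as bars. The intervals of both libraries lie apart for Zrsr2, Snrnp25 and Snrnp48.

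The 9 genes differed far more in level than between genotypes. On the RPKM scale, Zcrb1 was 8.32-fold above Zmat5 in the control and 9.32-fold above it in the Bcas2F/-;Vasa-Cre library. The order in the control was Zcrb1, Zrsr2, Snrnp25, Scnm1, Snrnp48, Rnpc3, Pdcd7, Snrnp35 and Zmat5. Neighbours from Zcrb1 down to Snrnp48 had separate counting intervals, whereas each neighbouring pair from Snrnp48 down to Zmat5 overlapped. In the Bcas2F/-;Vasa-Cre library only Snrnp25 and Scnm1 exchanged places, and their intervals overlapped there. Snrnp25 was 2.06-fold above Snrnp48 in the control and 1.06-fold above it in the Bcas2F/-;Vasa-Cre library. RPKM rests on a single length per gene, and GENCODE M21 lists 3 to 8 transcripts for each of the 9 genes, so levels depend on that length. For Scnm1 and Zcrb1, 5 of 8 annotated transcripts are retained-intron forms, which gene-level RPKM does not resolve.

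**Figure D3:**
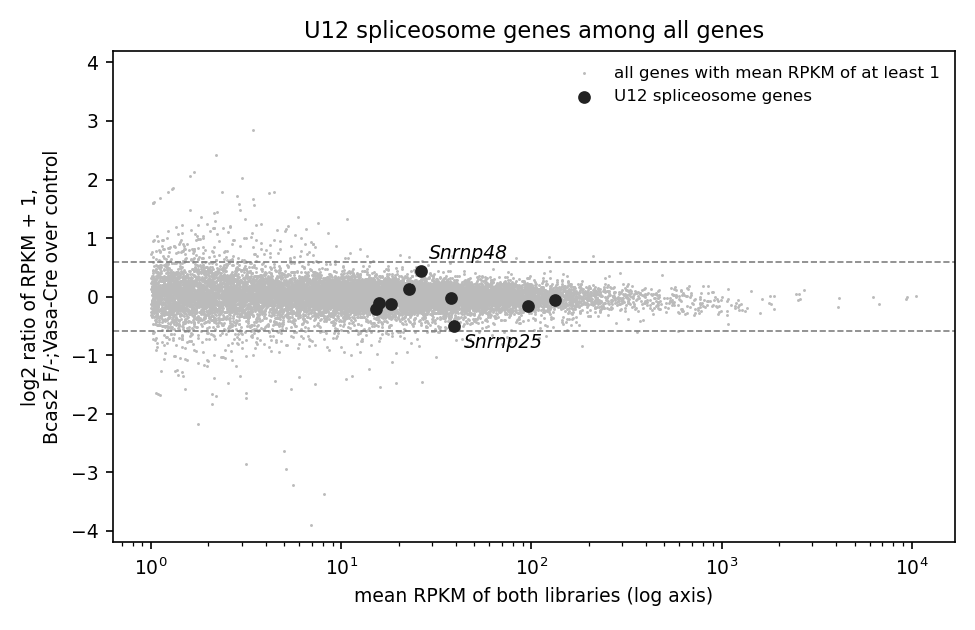
Log2 ratio of RPKM + 1 in Bcas2F/-;Vasa-Cre over control testes (vertical axis) against mean RPKM (horizontal log axis) for 14831 genes (grey) and the 9 minor spliceosome genes (black). Dashed lines mark 1.5-fold. Snrnp25 and Snrnp48 lie near the lower and upper edge of genes with a similar level, inside the dashed lines.

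Genes that share the pathway were described from lists of 7 each. The other minor spliceosome genes comprised Cript, Rbm48 and its partner Armc7, the U12-binding Rbm41, and Zrsr1, a retrotransposed relative of Zrsr2. They also included Ccdc84 and Txnl4b, which are linked to the U4atac/U6atac tri-snRNP. None of the 7 passed 1.5-fold, and the median log2 ratio was 0.02. The lowest was Armc7 at −0.16, with 8.23 RPKM in the control and 7.25 in the Bcas2F/-;Vasa-Cre library. Zrsr1 was the highest at 0.14, with 5.43 and 6.08 RPKM. All 7 counting intervals held 0. Zrsr1 and Zrsr2 transcripts were 77.4% identical over 1285 aligned bases. The SF3b subunits, which bind the branch site region in both the U2 and the U12 particle, had none of 7 past 1.5-fold and a median of −0.04, and 4 of their 7 counting intervals left out 0 (Sf3b1, Sf3b2, Sf3b3 and Phf5a). They ran from −0.19 for Sf3b3, with 54.0 and 47.3 RPKM, to 0.19 for Sf3b1, the subunit that holds the branch site adenosine, with 71.0 and 81.3 RPKM. No gene of these 2 lists was as far from 0 as Snrnp25 or Snrnp48.

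Markers of the cell types of the testis were set beside these values. Past 1.5-fold were 3 of 11 spermatogonia, 1 of 4 meiotic prophase and 3 of 7 blood cell markers, all lower, and 1 of 6 Leydig cell markers, higher. Without the pseudocount, Sycp1 (log2 RPKM ratio −0.59) and Nanos2 (0.86) also passed 1.5-fold, Nanos2 in the higher direction. Nanos2 had 1.01 RPKM in the control and 1.83 in the Bcas2F/-;Vasa-Cre library. None of the Sertoli cell, peritubular myoid and macrophage markers passed 1.5-fold. Of the 11 spermatogonia markers, 9 were below 0, with a median log2 ratio of −0.38 from −0.99 (Nanos3) to 0.49 (Nanos2), and their summed RPKM was 532 in the control and 400 in the Bcas2F/-;Vasa-Cre library. All 4 meiotic prophase markers were below 0, from −1.11 (Smc1b) to −0.30 (Sycp3), with summed RPKM of 84.1 and 54.2. Of the 7 Sertoli cell markers above the minimum, 6 were above 0, from −0.10 (Gata1) to 0.36 (Amh), with sums of 772 and 845. Rhox5, also on that list, was listed at 0 in both. Leydig cell markers had a median of 0.20, from −0.17 (Hsd3b1) to 0.68 (Cyp17a1), with sums of 387 and 431. Peritubular myoid markers lay from −0.13 (Acta2) to 0.09 (Cnn1), with sums of 523 and 489. The 4 macrophage markers above the minimum ran from −0.23 (Csf1r) to 0.10 (Mrc1), with sums of 29.6 and 28.2. Blood cell markers ran from −2.95 (S100a9) to 0.11 (Hbb-bs), with sums of 983 and 944. In RNA of whole testes, fewer cells of a type and less RNA per cell cannot be told apart. By real-time RT-PCR at P9, the paper found similar mRNA levels of Ddx4, Dazl, Nanos2, Kit, Sohlh1, Sohlh2 and Stra8 in both genotypes. It found lower levels of all 4 meiotic prophase markers. Its counts of spermatogonia at later ages did not differ significantly. The part of these markers in the differences of Snrnp25 and Snrnp48 was not tested.

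Snrnp25 is a neighbour of the α-globin genes, which were therefore looked at after its value had been seen. Within 100 kb lay 5 protein-coding genes whose mean RPKM reached 1, and the median of their log2 ratios was 0.03. Rhbdf1, the nearest of them, had an RPKM of 22.3 in the control and 22.8 in the Bcas2F/-;Vasa-Cre library. Mpg and Nprl3 were at 0.12 and 0.21 on the log2 scale. Hba-a1 was at −0.26, with 197 and 164 RPKM, and Hba-a2 at −0.06, with 155 and 149 RPKM. None of the 5 was as low as Snrnp25. The only such neighbour of Snrnp48, the desmosomal gene Dsp, had 1.01 RPKM in the control and 1.65 in the Bcas2F/-;Vasa-Cre library, from 120 and 190 reads. At this low level the pseudocount counts: its log2 ratio was 0.40 on the scale of RPKM + 1 and 0.71 on that of RPKM, with an interval of 0.37 to 1.05.

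**Figure D4:**
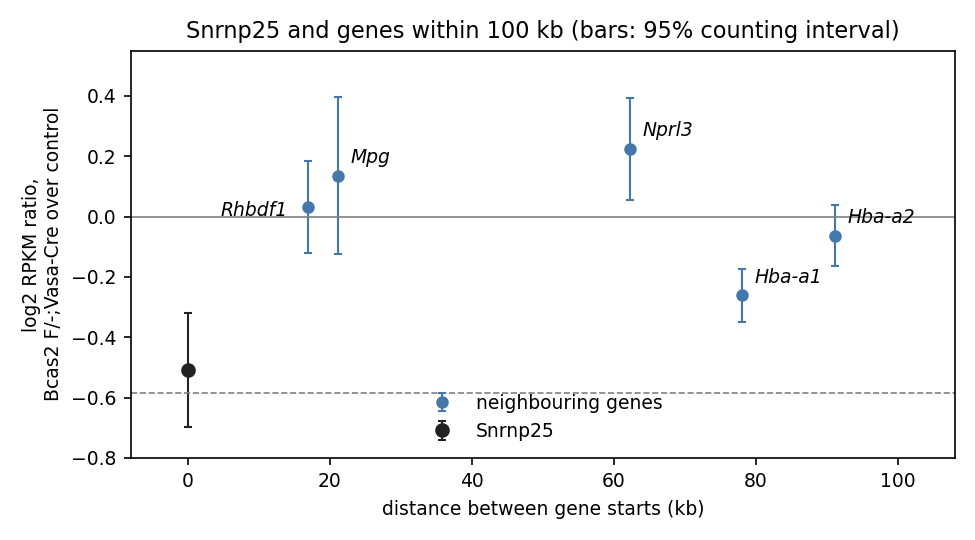
Log2 RPKM ratio of Bcas2F/-;Vasa-Cre over control testes (vertical axis) against the distance between gene starts in kb. Snrnp25 is black, and the 5 protein-coding genes within 100 kb whose mean RPKM reached 1 are blue. Bars are 95% Clopper-Pearson counting intervals and the dashed line marks a 1.5-fold fall. Each of these 5 neighbours lies above Snrnp25.

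Near copies could take reads from some of the 9 genes. In a search for stretches of at least 100 bases with at least 90% identity in other genes, the transcripts of Rnpc3 and Zmat5 matched the overlapping Amy1 and Cabp7. Snrnp35 matched the processed pseudogene 1700128F08Rik at 92.1% over 732 bases, which was listed at 0 in both libraries. Zcrb1 matched Gm9202 at 92.3% over 444 bases, a gene not analysed here. The transcripts of Snrnp25, Snrnp48, Pdcd7, Zrsr2 and Scnm1 had no such match.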

How the data were processed

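The authors removed adaptor and low-quality sequences, aligned paired-end reads with TopHat2 2.0.9 (mm10 in the submitters' processing notes), used HTSeq to count the reads of each gene, and deposited RPKM values with zeros included. The annotation release and gene lengths are not given in the sources used here. Of 39695 entries, 37606 (94.7%) matched GENCODE M21 on GRCm38, the assembly that mm10 names, by Ensembl identifier.

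From these values, log2 ratios of RPKM + 1 were computed for genes whose mean RPKM reached 1, and genes past 1.5-fold were counted. Whole reads were recovered from the steps of the RPKM values. Single-transcript genes with 1 read gave the library size (1318 and 1326 genes), and the ratio of whole reads with the mean transcript length gave the reads of a gene. For 76.3% of 21201 genes above 0 in both libraries the ratio was one of whole numbers beyond chance (under 5%), 8 of the 9 genes described included. Other genes have reads rounded from the M21 length.

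Groups followed the genotype labels, with 1 library each and no test. By rule, the named genes were the 9 genes, Bcas2, the lowest and highest gene of each fixed pathway and marker list, and any pathway gene past 1.5-fold. Outside this rule, the other minor spliceosome genes, Rnu11, Rnu12 and the SF3b subunits whose interval left out 0 were named. Genes near or overlapping the 9 and their near copies were also named, those near Snrnp25 after its value was seen. So were markers listed at 0, past 1.5-fold without the pseudocount or set beside the RT-PCR of the paper. All were chosen with earlier results of these data known. With 2 libraries, no gene was named for a similar pattern. Alternatives were pseudocounts of 0.1 and 0.01, 2 scalings, 2 filters and a stricter call rule. Genes with a U12-type intron were to be compared, but this needs a genome sequence and was not run. Python 3.11.15, numpy 2.4.6, scipy 1.17.1, pandas 2.3.3, matplotlib 3.10.9 and BLAST+ 2.17.0 were used.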

Additional observations from a re-analysis of the deposited data

How the results depend on the processing

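The counts of 0 minor spliceosome genes past 1.5-fold, lower and higher, stayed at 0 under all 7 alternatives that could be run, and the ratios of the 9 genes, their median and Bcas2 moved by less than counting error. Bcas2 was at −0.605 as reported, past 1.5-fold, which is 0.585 in size on the log2 scale. With RPKM rescaled to 1000000 per library, Bcas2 was at −0.584, just inside 1.5-fold. Each of the 9 kept its direction. Snrnp25 ran from −0.51 to −0.47, Snrnp48 from 0.42 to 0.47, and Scnm1, nearest to 0, from −0.04 to −0.001. The 2 filters could not change the counts of 0, since all 9 genes passed both. A stricter call rule cannot raise a count of 0. At the levels of the 9 genes the other alternatives could move a ratio only slightly. The 7 alternatives therefore say little about stability between animals. Over all genes, 3.26% passed 1.5-fold as reported, 6.58% with a pseudocount of 0.01 and 1.41% with a mean RPKM of at least 5. With RPKM rescaled to 1000000 per library, 356 genes were lower and 434 higher, against 251 and 233 as deposited. No paired analysis was possible because each genotype had 1 library, and the planned comparison of genes with a U12-type intron was not run.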
